A study of Homo sapiens with 32 samples.

Results

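The guides described here target the subunits of eukaryotic initiation factor 3 (eIF3) and come from a genome-scale CRISPR knockout screen. The cells were RKO, a line established from a colon carcinoma. They were taken from the count table by gene: the Ensembl identifiers of 13 subunits, EIF3A to EIF3M, were matched, which gave 52 guides (4 a subunit) of 74987 guides in the library and 13 of 18638 targeted genes. All cells shared 1 background. They were of the genotype labelled WT, stably expressed Cas9 and KinprolaPKA by lentiviral transduction, carried guides of the HD CRISPR sublibrary A and had been selected with puromycin. KinprolaPKA is a recorder of protein kinase A (PKA) activity: it is labelled by the fluorescent ligand CPY-CA while the kinase is active, and its EGFP reports how much recorder a cell holds.

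On the sixth day the cells were labelled with CPY-CA and sorted by the CPY-CA/EGFP ratio into a high population of around 25% of cells, a medium population of around 50% (called basal in the labels) and a low population of around 25%. Genomic DNA of each population, and of cells of day 0 (T0), was amplified and the guides were counted by sequencing. Each of 2 screens, numbered replicates 2 and 3, gave 1 library of each of these 4 groups, so every test below rests on 2 screens. Shares of sorted cells below are estimates: reads scaled to a common library total and weighted by the nominal size of each gate. A guide count is a number of PCR reads, taken as a relative measure of the cells that carry a guide. It does not show that the gene was cut in each of them, and no eIF3 protein was measured.

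eIF3 is the large scaffold of translation initiation. It binds the small (40S) ribosomal subunit, helps to load the initiator tRNA complex and, through eIF4G, brings the mRNA to the ribosome. The counterparts of EIF3A, EIF3B, EIF3C, EIF3G and EIF3I form the core of the smaller eIF3 of budding yeast, called the core subunits below. EIF3A and EIF3C also join EIF3E, EIF3F, EIF3H, EIF3K, EIF3L and EIF3M in the PCI/MPN octamer of the human complex, a fold that the COP9 signalosome and the proteasome lid share. EIF3D sits at the edge and can bind the mRNA cap, and EIF3J, which also has a yeast counterpart, is loosely attached.

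The 8 libraries held between 23369720 and 31777138 reads, and the 52 eIF3 guides had between 7208 and 17399 of them. The median eIF3 guide had between 118 and 328 reads in a library and the lowest had 14, so no eIF3 guide was lost to the filter on low counts. Reads were brought to a common library total, the mean of the 8. A value for a subunit is the log2 ratio of 2 libraries of 1 screen, with 1 read added, averaged over its 4 guides and then over both screens, and its test is limma with Benjamini-Hochberg adjustment over all genes of the table. Its p-value, SE and interval come from limma's moderated variance, which draws on the spread of all genes. The SE and interval can thus be wider or narrower than the spread of the 2 screens of that gene. As a reference for direction, PRKACA, the main catalytic subunit of PKA, had 47.9% and 48.3% of its sorted cells in the low population, which by the sort holds about 25% of all cells.

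Knockout of eIF3 subunits was found more often in high than in low. Together the 52 guides had 8413 scaled reads in low, 8746 in medium and 11637 in high in replicate 2, and 7900, 8003 and 11478 in replicate 3. Weighted by the size of each gate, 31.0% and 32.4% of the sorted cells with an eIF3 guide were in the high population and 22.4% and 22.3% in the low one. Of the 13 subunits, 8 were higher in high than in low by limma, against a background of 5.25% of all genes higher. None was lower, against 2.73% of all genes, and none had a negative value at an unadjusted p under 0.05 (8.04% of all genes). edgeR on the summed reads of each gene also called 8 higher (6.84% of all genes). Leaving out 1 library gave 3 to 8 calls, with 3 (EIF3F, EIF3I and EIF3M) without low replicate 2, and none of these fits called a subunit lower. The median subunit differed by 0.46 on the log2 scale (0.40 and 0.59 in the 2 screens), beside -0.01 for all genes.

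EIF3D, the cap-binding subunit, had the highest value. It had 239 scaled reads in low, 329 in medium and 608 in high in replicate 2, and 261, 286 and 627 in replicate 3. Both high libraries were above both medium libraries, and those were above both low libraries. The log2 difference between high and low was 1.16 ± 0.12 (SE, n = 2 screens; limma adjusted p = 3.09e-05), with 1.30 and 1.02 in the single screens. Of its sorted cells, 40.4% and 43.0% were in the high population. All 4 guides were positive in both screens, with mean values from 0.87 to 1.52. By an edgeR quasi-likelihood test of single guides, guide 4 alone was called, and it was the guide with the most reads: 145 scaled reads in low against 399 in high in replicate 2, and 139 against 421 in replicate 3 (edgeR adjusted p = 2.51e-09). The 3 other guides had at most 107 scaled reads in any sorted library. Without the low library of replicate 2 the value of EIF3D was 0.88 and no longer passed (limma adjusted p = 0.111).

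EIF3F, an MPN subunit, was next. Its scaled reads rose from 774 in low to 928 in medium and 1462 in high in replicate 2, and from 539 to 810 and 1429 in replicate 3, with no overlap between populations. The log2 difference was 1.12 ± 0.13 (SE, n = 2 screens; limma adjusted p = 0.000149). The 95% intervals of EIF3D (0.91 to 1.42) and EIF3F (0.83 to 1.42) overlapped, so their order is not resolved. EIF3F had the most guides called singly, 3 of 4, and the widest spread between guides (SD 0.45 over the 4). Guide 1 went from 244 to 635 scaled reads and from 124 to 521 (log2 difference 1.72), while guide 4 went from 281 to 366 and from 214 to 404 (0.65).

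The other 4 octamer subunits without a yeast counterpart that differed were EIF3E, EIF3M, EIF3H and EIF3K, and EIF3L did not pass. EIF3E had 474, 480 and 766 scaled reads in low, medium and high in replicate 2 and 445, 611 and 754 in replicate 3 (log2 difference 0.68 ± 0.11, limma adjusted p = 0.00135). EIF3M had 501, 553 and 753, and 442, 591 and 888 (0.65 ± 0.12, limma adjusted p = 0.00302). For both, the high libraries were above every other sorted library, while EIF3E's low libraries and its medium library of replicate 2 were alike. EIF3E and EIF3M had 1 and 2 of 4 guides called singly. Neither call held without high replicate 2 (limma adjusted p = 0.101 and 0.0935) or low replicate 3 (0.179 and 0.251). EIF3E also lost it without low replicate 2 (0.112) and EIF3M without high replicate 3 (0.0984).

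EIF3H was the most even of the subunits. It had 1020, 1236 and 1677 scaled reads in low, medium and high in replicate 2 and 1037, 1189 and 1557 in replicate 3. Its log2 difference of 0.64 ± 0.11 (SE, n = 2 screens; limma adjusted p = 0.0022) was carried by 4 guides that lay between 0.55 and 0.75, an SD of 0.08, and all 4 were positive in both screens. Guides 1 and 2 were called singly. The call of the gene was lost without low replicate 2 alone (0.58, limma adjusted p = 0.0896).

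EIF3K and EIF3L bind each other within the octamer. EIF3K had 730, 564 and 796 scaled reads in low, medium and high in replicate 2 and 604, 547 and 834 in replicate 3. Its log2 difference of 0.41 ± 0.11 was just past the threshold (limma adjusted p = 0.0476). That call was lost in the fit on libraries with the screen as a block (adjusted p = 0.0548) and by edgeR on gene sums (adjusted p = 0.175), and without any 1 of the 4 high and low libraries (limma adjusted p = 0.118 to 0.356). EIF3L had 972, 1041 and 1058 scaled reads, and 1177, 871 and 1054. Its populations overlapped, and its log2 difference was -0.05 (95% interval -0.32 to 0.23, limma adjusted p = 0.909), or 0.07 when libraries were centred on the guides without a target. The difference between EIF3K and EIF3L was not tested.

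Of the 5 core subunits, EIF3I and EIF3C passed. EIF3I, a WD40 propeller that binds EIF3B and EIF3G, had 220, 228 and 384 scaled reads in low, medium and high in replicate 2 and 203, 203 and 390 in replicate 3. Low and medium were alike, and both high libraries were above them. Its log2 difference was 0.89 ± 0.11 (SE, n = 2 screens; limma adjusted p = 0.00016), and its 4 guides, all positive in both screens, lay between 0.68 and 1.23. None of these was called singly. The highest scaled count of an EIF3I guide in a sorted library was 154.1.

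EIF3C, the PCI subunit that pairs with EIF3A, had 802, 762 and 1086 scaled reads in low, medium and high in replicate 2 and 751, 709 and 1061 in replicate 3 (log2 difference 0.46 ± 0.11, limma adjusted p = 0.0222). Its 4 guides lay between 0.31 and 0.69. The call was lost without any 1 of the 4 high and low libraries (limma adjusted p = 0.0704 to 0.264) and in the fit without the screen (0.0778). The guides cannot be assigned to EIF3C alone. In GENCODE 44 (GRCh38) EIF3C lies on chromosome 16 from 28688558 to 28735727, and its copy EIF3CL lies from 28379579 to 28403841 of the same chromosome. Their coding sequences of 2739 and 2742 bases were 99.9% identical, and 99.8% of the 20-base windows of EIF3C were also in EIF3CL. The library holds 4 further guides listed under EIF3CL. Their log2 difference was 0.34 ± 0.17 (limma adjusted p = 0.332), 0.78 in replicate 2 and -0.09 in replicate 3. Guide 1 of EIF3CL had few reads and turned between screens. It had 7 reads in low and 40 in high in replicate 2 (2.08), and 15 and 4 in replicate 3 (-1.60). Guides 2, 3 and 4 had mean values of -0.15, 0.44 and 0.84.

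EIF3G, EIF3B and EIF3A did not pass in this comparison, although all 3 were positive in both screens. EIF3G, an RNA-binding subunit, had 581 and 480 scaled reads in low and 693 and 728 in high, a log2 difference of 0.40 (95% interval 0.12 to 0.68, limma adjusted p = 0.095). EIF3B, the scaffold of the EIF3G and EIF3I module, had 0.31 (0.08 to 0.55, adjusted p = 0.127) and EIF3A, the largest subunit, 0.29 (0.05 to 0.53, adjusted p = 0.165). The upper bounds of all 3 intervals lay above the value of EIF3C, which passed. EIF3G passed in 5 of 9 other settings with all libraries, EIF3B in 1 and EIF3A in none. EIF3J, the loosely bound subunit, had 1212 and 1150 scaled reads in low and 1320 and 1138 in high, and a log2 difference of 0.03 (-0.22 to 0.27, adjusted p = 0.942).

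Single guides mostly gave the same direction. The values of the genes are means of these guides, so this is not separate evidence. Of the 52 eIF3 guides, 39 (75.0%) were more frequent in high than in low in both screens and 4 (7.69%) were less frequent in both. Among all guides against genes these shares were 27.6% and 29.0%. Among 278 guides without a target in the genome they were 14.4% and 43.5%, with a mean log2 difference of -0.11. edgeR called 9 eIF3 guides higher, against 2.95% of all guides tested, and none lower, against 1.55%. The 9 were EIF3D guide 4, EIF3E guide 1, EIF3F guides 1, 3 and 4, EIF3H guides 1 and 2, and EIF3M guides 2 and 4. DESeq2 called 5, and edgeR called 3 without low replicate 3 or without high replicate 3 and 5 without high replicate 2. Since guides without a target lay below 0, centring on them moved the median of all genes from -0.01 to 0.10. It then called 10 subunits higher (6.83% of all genes) and none lower, while the calls over all genes went from 979 higher and 508 lower to 1273 and 281.

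Against medium, all 13 subunits were positive in the high population, from 0.05 for EIF3J to 0.91 for EIF3D, with a median of 0.53 beside -0.01 for all genes. limma called 2, EIF3I (0.87 ± 0.11, adjusted p = 0.0234) and EIF3B (0.75 ± 0.10, adjusted p = 0.0323), where 1.70% of all genes were higher and 0.0966% lower. The count depended on the fit, and EIF3B lost its call without high replicate 3 (limma adjusted p = 0.0585). At an unadjusted p under 0.05 there were 11 subunits higher (6.62% of all genes), edgeR on gene sums called 10 (3.55%), and centring on guides without a target gave 11 (4.66%). EIF3F (0.76, adjusted p = 0.0545) and EIF3D (0.91, adjusted p = 0.0641) were just outside the threshold.

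In low against medium no subunit passed in either direction, where 1.18% of all genes were higher and 1.54% lower by limma. The median subunit was at 0.02, and 7 were positive and 6 negative. At an unadjusted p under 0.05 there were 2 subunits, 1 higher (5.18% of all genes) and 1 lower (5.94%). EIF3F was lower in low than in medium (-0.37, 95% interval -0.61 to -0.12, limma adjusted p = 0.173), and edgeR on gene sums called it (2.71% of all genes lower). EIF3B was higher in low than in medium (0.44, 0.18 to 0.69, limma adjusted p = 0.106). EIF3B thus had fewer scaled reads in medium (389 and 333) than in low (470 and 423) or high (557 and 511) in both screens, and the 3 populations did not overlap.

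The sum of low and high less 2 times medium, on the log2 scale, is 0 where low and high lie equally far from medium in opposite directions. It is positive where both lie above medium, or where 1 lies further above it than the other lies below. It was positive for all 13 subunits, with a median of 0.62 beside -0.003 for all genes. It passed for none of them by limma, at a background of 0.0376% of all genes called in either direction, nor by edgeR on gene sums (0.934%). EIF3B had the highest value (1.19 ± 0.19, limma adjusted p = 0.133), with both sides above medium (0.44 and 0.75). Its 4 guides ranged from 0.07 to 2.16, an SD of 1.03. Guides 2 and 4, the highest, had 27 to 53 reads in a medium library. At an unadjusted p under 0.05 there were 6 subunits with a positive sum (4.39% of all genes). High against low, high against medium and this sum share libraries, so they are not separate evidence.

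eIF3 guides were also less frequent at the sort than at T0. The sorted cells of a screen were put together again by adding the scaled reads of the 3 populations in proportion to their gates. So measured, the 52 guides went from 15164 scaled reads at T0 to 9385 in replicate 2, which is 61.9%, and from 14769 to 8846 in replicate 3, which is 59.9%. By limma 9 of 13 subunits were lower, against 8.35% of all genes, and none was higher, against 2.54%. The median subunit was at -1.03 and the median of all genes at 0.04. Of single guides, 33 of 52 were lower by edgeR, against 6.29% of guides tested, and none was higher, against 1.01%. Without T0 replicate 2 the count was 21.

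Ordered by role, the 5 core subunits were all lower and had the 5 lowest values, although EIF3C and EIF3D differed by less than their SE. EIF3B kept 36.5% and 35.0% of its T0 reads (log2 difference -1.51 ± 0.09, limma adjusted p = 1.08e-12) and EIF3I 37.2% and 32.0% (-1.50 ± 0.10, adjusted p = 1.59e-12). EIF3G (-1.39), EIF3A (-1.39) and EIF3C (-1.13) followed, and all 20 guides against these 5 genes were lower by edgeR. EIF3CL, the copy of EIF3C, was at -1.62 ± 0.10 (limma adjusted p = 4.95e-13). The EIF3C guides cannot be assigned to EIF3C alone, so its place in this order need not be that of EIF3C alone. EIF3D was at -1.10 ± 0.09, with 51.5% and 47.3% of its T0 reads left.

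In the rest of the octamer EIF3E, EIF3M and EIF3F were lower and EIF3H, EIF3K and EIF3L did not pass. EIF3E was at -1.03 ± 0.10 (limma adjusted p = 3.43e-09), EIF3M at -0.56 ± 0.10 (adjusted p = 0.000168) and EIF3F at -0.48 ± 0.09 (adjusted p = 0.000538). For EIF3F, 3 guides were lower and guide 2 was not (0.20, edgeR adjusted p = 0.892). Without T0 replicate 2 neither EIF3F nor EIF3M passed (limma adjusted p = 0.0711 and 0.161), and without T0 replicate 3 EIF3F did not (0.162). EIF3H had 85.7% of its T0 reads in both screens (-0.22, 95% interval -0.42 to -0.03, limma adjusted p = 0.156). EIF3K kept 92.9% and 92.4% (-0.03, interval -0.22 to 0.17, adjusted p = 0.899) and EIF3L 113% and 105% (0.02, interval -0.18 to 0.22, adjusted p = 0.917), or -0.22 when centred on guides without a target. EIF3J was at -0.30, just outside the threshold (adjusted p = 0.0583).

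For EIF3H, EIF3J and EIF3K the call depended on the setting. edgeR on gene sums called EIF3H (-0.27, adjusted p = 0.00799) and EIF3J (-0.33, adjusted p = 0.00138). EIF3J also passed by limma with a pseudocount of 5, a minimum mean of 50 reads, the median over guides and without medium replicate 2 (adjusted p = 0.0211 to 0.0474), and EIF3L passed in none of the settings. Guides without a target in the genome were at 0.24 on the same scale, and centring on them moved the median of all genes from 0.04 to -0.20. EIF3H (-0.46, limma adjusted p = 0.00325), EIF3J (-0.53, adjusted p = 0.00271) and EIF3K (-0.26, adjusted p = 0.0446) then passed and EIF3L did not (adjusted p = 0.0959), but the genes called lower rose from 1556 to 6232, or 33.4% of all genes.

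How far a knockout was lost and how far it leaned to the high population were not ordered alike across subunits. EIF3B, EIF3A and EIF3G were among the 4 most strongly lost and did not pass between high and low. EIF3F kept 66.3% and 63.1% of its T0 reads and EIF3H 85.7%, and both passed. EIF3I was the other of the 4 most strongly lost (-1.50 against T0), and it did pass between high and low (0.89). Across the 13 subunits Pearson's r of the 2 values was -0.24 and Spearman's rho -0.15, given as a description only, since the same sorted libraries enter both. Scaled reads of some called and uncalled subunits overlapped. EIF3A and EIF3B, which did not pass, had between 317 and 557 scaled reads in a sorted library. EIF3I and EIF3D, which passed, had 203 to 390 and 239 to 627. The 9 guides called singly in high against low each had at least 403 reads in T0 replicate 2. EIF3G guide 3, with 707 there, was not called. The part of read depth in the calls was not tested.

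Related groups were counted in the same way, beside 5.25% of all genes higher and 2.73% lower in high than in low and 8.35% lower than at T0. Of 30 other initiation factors, 9 were higher and 9 lower in high than in low, with a median of 0.08. At the ends were ABCE1, a ribosome recycling factor (3.01 ± 0.18, limma adjusted p = 6.91e-07), and EIF4G2, a relative of the eIF4G scaffold (1.92 ± 0.11, adjusted p = 4.32e-07), and on the low side EIF2S3, the gamma subunit of eIF2 (-2.43 ± 0.12, adjusted p = 2.37e-07), and EIF5B, which joins the ribosomal subunits (-2.25 ± 0.17, adjusted p = 3.05e-06).

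The 33 proteins of the 40S subunit, to which eIF3 binds, had a median near that of eIF3. Of them 17 were higher and none lower, with a median of 0.48 beside 0.46 for eIF3. RPS7 (1.79 ± 0.13, limma adjusted p = 2.3e-06) and RPS14 (1.73 ± 0.15, adjusted p = 9.86e-06) had the highest values, and RPS3A (-0.08, adjusted p = 0.922) and RPS27A (-0.20, adjusted p = 0.437) the lowest. Their loss since T0 was larger, with 33 of 33 lower and a median of -1.83. Of 18 subunits of the COP9 signalosome and the proteasome lid, which share the PCI/MPN fold but not the function, 3 were higher and 8 lower, with a median of -0.06. PSMD7 (1.17) and PSMD14 (0.59), both of the lid, were highest. COPS2 (-1.20) and GPS1 (-1.30), both of the signalosome, were lowest. Since T0, 21 of the 30 other initiation factors and 15 of these 18 were lower. In high against medium the 40S proteins had a median of 0.67, with 31 of 33 positive and 8 called higher (1.70% of all genes). The COP9 signalosome and lid list had 0.15 and eIF3 0.53. The median of low plus high less 2 times medium was 1 for the 40S proteins, 0.86 for the signalosome and lid and 0.62 for eIF3. The other initiation factors had -0.01 in both. Differences between these groups were not tested.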

How the data were processed

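The screen's authors counted guide sequences with MAGeCK 0.5.9.4 and deposited unnormalised read counts, guide by guide, with 1 column for each of 4 lanes per library. For the alignment, tool and build are not given in the sources used here. The descriptions of the medium samples of lane 4 repeat the name of the high sample, so titles were used to assign them. Lanes of a library differed by little more than sampling noise (a chi-square of 1.02 to 1.03 per degree of freedom) and were summed. The 4 columns that matched no sample were not used. PCR reads carry no molecular identifiers, so n is the number of screens. Per the study's text the 2 screens were carried out separately. The p-values of limma weigh the spread between them together with the spread of all genes.

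Genes were named through GENCODE 44, which held 18585 of 18638 identifiers. Guide sequences were not used here. Each library was brought to the mean of the 8 totals. With 1 read added, log2 differences were taken within a screen and averaged over the guides of a gene, after the study's methods. They were tested against 0 with limma 3.58.1 in R 4.3.3 at an adjusted p of 0.05. The study then took core-essential genes of RKO cells out of its hit list. That step was not applied here, so the calls and background shares above are not the study's hit list. Guides were tested with edgeR 4.0.16 (quasi-likelihood, TMM, screen as a block). For T0, the sorted pool was 0.25 high, 0.5 medium and 0.25 low. All 13 subunits were named, and from each of 3 other lists the 2 highest and 2 lowest in high against low. The members, the lists and these rules were chosen with earlier results of these data known. Alternatives were other scalings (TMM, median of ratios, guides without a target), a pseudocount of 5, a minimum mean of 50 reads and the median over guides. Further ones were fits on libraries with and without a screen block, edgeR on gene sums, DESeq2 1.42.0 for guides, and leaving out each library. The scripts were tested on simulated data.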

Additional observations from a re-analysis of the deposited data

How the results depend on the processing

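The 8 subunits higher in high than in low were between 6 and 10 under other scalings, pseudocounts, filters, collapses and tests, and no alternative called a subunit lower. Leaving out 1 library gave 3 to 8: 3 without low replicate 2, 4 without low replicate 3, and 5 without high replicate 2 or high replicate 3; the 8 are for medium libraries, which do not enter this comparison. EIF3F and EIF3I passed under all of these. High against medium (2 higher) was the least stable count: 11 when centred on guides without a target, 10 with the median over guides, 10 by edgeR on gene sums, 5 with a pseudocount of 5, 4 with a minimum mean of 50 reads, and 1 without high replicate 3 to 5 without medium replicate 2. The sum of both sides (0 called) gave 1 when centred, with a pseudocount of 5 or with the minimum of 50 reads, 2 with the median over guides, and 0 to 1 when a library was left out (1 without medium replicate 3). Low against medium (0 called) gave 1 higher, EIF3B, with the median over guides and 1 lower, EIF3F, by edgeR on gene sums. The 9 subunits lower than at T0 were between 9 and 12 with all libraries and 7 to 10 with 1 left out. Single guides higher in high (9) were 5 by DESeq2 and 3 to 10 with 1 library left out (3 without low replicate 3 or high replicate 3, 5 without high replicate 2). Guides lower than at T0 (33) were 21 without T0 replicate 2 and 22 without T0 replicate 3, and up to 34 without another library. The cause of these changes was not tested.

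Fold changes within a screen pair the libraries by construction, after the study's methods. Same-numbered libraries deviated together with correlations of 0.103 to 0.139 among sorted libraries and 0.075 to 0.0828 with T0. On single libraries, high against low gave 7 with the replicate block and 6 without, high against medium 5 and 4, and the pool against T0 9 and 9. Guides higher in high were 6 by edgeR without the block, and guides lower than at T0 were 31.

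Directions turned only for values that had not passed. EIF3L between high and low was 0.0663 when centred, and EIF3J between high and medium was -0.0568 with the median over guides. Against T0, EIF3L was -0.216 when centred and -0.000865 as a weighted mean of log2 values, with or without the replicate block. With 1 library left out, EIF3J between high and low ranged from -0.122 to 0.174 and EIF3L from -0.318 to 0.227. In low against medium EIF3A ranged from -0.0937 to 0.615, EIF3D from -0.611 to 0.1, EIF3G from -0.0111 to 0.273, EIF3I from -0.149 to 0.121, EIF3J from -0.142 to 0.186 and EIF3M from -0.382 to 0.0205. EIF3J in high against medium ranged from -0.116 to 0.212, and against T0 EIF3K from -0.102 to 0.00346 and EIF3L from -0.107 to 0.105.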
